A study of Mus musculus with 12 samples.

Results

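The Fc gamma receptor genes of mouse macrophages were followed through IL-4 and LPS treatment. The set held 6 of the 23847 gene rows in each expression table, chosen by gene symbol. It comprised the activating receptors Fcgr1, Fcgr3 and Fcgr4, their signaling chain Fcer1g, the inhibitory receptor Fcgr2b, and Fcgrt, the heavy chain of the neonatal Fc receptor. All 6 genes reached 1 FPKM in some library, the filter that left 11191 rows for testing.

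Fc gamma receptors bind the constant part of IgG and let macrophages respond to antibody-coated particles and immune complexes. The activating receptors signal through the immunoreceptor tyrosine-based activation motif (ITAM) of the Fcer1g chain, which recruits the kinase Syk and drives phagocytosis and cytokine production. Fcgr2b instead carries an inhibitory motif (ITIM) that recruits phosphatases such as SHIP-1, encoded by Inpp5d, and raises the threshold of the same cells. FcRn, the product of Fcgrt paired with beta-2 microglobulin, binds IgG in acidic endosomes and returns it to the cell surface.

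The cells were wild type mouse bone marrow-derived macrophages (BMDMs), grown in culture for 6 days with L929 supernatant as the source of M-CSF, from mice of 8 to 12 weeks on a C57BL/6 background. Control cells received neither agent. The IL-4 group received IL-4, the cytokine of alternative polarization, at 20 ng/ml for 24 h. The LPS group received LPS, a bacterial cell wall component, at 100 ng/ml (the unit on the sample labels, where the methods give nM) for 3 h, and the IL-4+LPS group was pretreated with IL-4 before LPS. Each of the 4 groups held 3 libraries of poly-A selected RNA, 12 in all, and levels were given as FPKM (sequenced fragments per kilobase of a transcript, scaled to the depth of each library). Read counts were not analysed here, so absolute depth was unknown. Steps among the low values placed the depth of the libraries between 0.99 and 3.31 times that of control replicate 1.

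The 6 macrophage markers checked (Csf1r, Adgre1, Cd68, Itgam, Mertk and Lyz2) were above 1 FPKM in every library. Their summed level was lower in both groups that received IL-4, at 7556 to 7770 FPKM in IL-4 and 6551 to 6935 FPKM in IL-4+LPS, against 19158 to 20531 FPKM in control and 15380 to 16609 FPKM in LPS, with Lyz2 giving most of it. Markers of B, T and NK cells, mast cells and basophils, dendritic cells and fibroblasts reached at most 4.28 FPKM for any gene. The 5 neutrophil markers in the tables (S100a8, S100a9, Mpo, Elane and Ngp) were detected in every library, with summed levels of 357 to 924 FPKM in control cells, 229 to 432 FPKM with IL-4, 541 to 1104 FPKM with LPS and 452 to 903 FPKM with both. Replicate 1 held the lowest sum in each group. The part of neutrophil RNA in the results for Fcgr3, Fcgr4 and Fcer1g, which neutrophils also express, was not tested. In bulk libraries such as these, fewer cells of a type and less RNA per cell cannot be told apart.

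The median of all tested rows shifted by -0.44 on the log2 scale in LPS against control and by -0.41 in IL-4+LPS against IL-4, but by only -0.05 in IL-4 against control and -0.03 in IL-4+LPS against LPS. Changes with LPS are therefore given beside this shift. The 2 comparisons that measure the effect of IL-4 were nearly free of it. All differences and tests below were made with limma on log2(FPKM + 1) over the 12 libraries, with p-values adjusted over the 11191 rows (Benjamini-Hochberg, threshold 0.05).

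**Figure D1:**
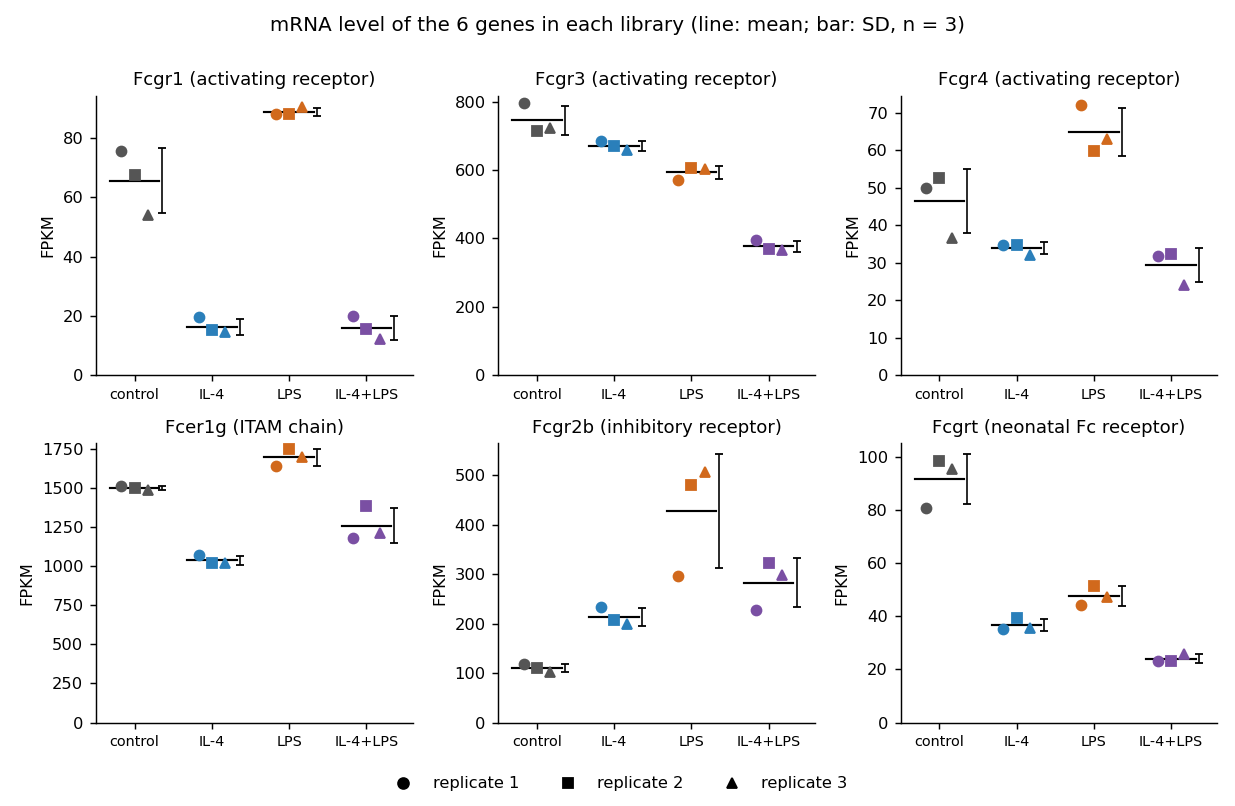
FPKM of the 6 genes in each library, 1 panel per gene with the 4 groups on the x axis and an FPKM axis that starts at 0. Symbols mark replicates 1 to 3, lines the group mean and bars the SD (n = 3). Fcgr1 lies between 12.1 and 20.0 FPKM in every library that received IL-4 and between 53.9 and 90.3 FPKM in every other library, while Fcgr2b is above its control range of 103 to 118 FPKM in all 9 treated libraries.

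Fcgr1 encodes the high-affinity IgG receptor and lies at chr3:96282909-96293969 in mm10, on the minus strand. Its level was 75.5, 67.4 and 53.9 FPKM in control replicates 1 to 3, and 88.0, 88.2 and 90.3 FPKM in LPS. In IL-4 it was 19.5, 15.1 and 14.4 FPKM, and in IL-4+LPS 20.0, 15.6 and 12.1 FPKM. The libraries thus fell into a high range without IL-4 and a low range with IL-4 that did not overlap, whether or not LPS was added. IL-4 lowered Fcgr1 from 65.6 ± 10.9 to 16.3 ± 2.75 FPKM (SD, n = 3), 4.02-fold (log2 difference -1.94, SE 0.18, limma adjusted p = 1.64e-05). In LPS-exposed cells IL-4 pretreatment lowered it 5.58-fold, from 88.8 ± 1.29 to 15.9 ± 3.93 FPKM (log2 difference -2.44, SE 0.18, limma adjusted p = 3.53e-06). Both calls were kept in each of the alternative fits, including those without any 1 library.

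LPS alone raised Fcgr1 1.35-fold (log2 difference 0.45, SE 0.18, limma adjusted p = 0.0392), but this call was lost in 6 of the 12 fits that left out 1 library, where the difference ran from 0.31 to 0.55. After IL-4 no difference with LPS passed the threshold (log2 difference -0.05, 95% CI -0.44 to 0.34). The response to LPS with and without IL-4 was not shown to differ for Fcgr1 (interaction -0.49, limma adjusted p = 0.259). From high to low the order was LPS, control, IL-4 and IL-4+LPS, the last pair not differing beyond their spread.

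The start regions of the genes are shown because Fcgr1 and Fcgr2b moved in opposite directions with IL-4. RefSeq start sites of build GRCm38.p6, the assembly also called mm10, were found for 6 of 6 genes. The 300 bases around each start were searched on both strands for TTCNNNNGAA, the spacing preferred by STAT6, the factor activated by IL-4, for TTCNNNGAA, the form bound by other STAT factors, for GAGGAA, a core bound by the macrophage factor PU.1, and for the kappa B consensus. Capitals mark the matches to the first 3 motifs in the 250 bases before the start, printed 5′ to 3′ on the strand of the gene.
Fcgr1, minus strand, chr3:96293970-96294219: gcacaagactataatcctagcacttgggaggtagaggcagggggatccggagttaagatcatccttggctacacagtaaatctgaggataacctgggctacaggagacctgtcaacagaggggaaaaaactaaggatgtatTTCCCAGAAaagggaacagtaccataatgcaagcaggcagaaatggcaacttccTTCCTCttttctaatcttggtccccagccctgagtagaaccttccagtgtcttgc
Fcgr4, plus strand, chr1:171018676-171018925: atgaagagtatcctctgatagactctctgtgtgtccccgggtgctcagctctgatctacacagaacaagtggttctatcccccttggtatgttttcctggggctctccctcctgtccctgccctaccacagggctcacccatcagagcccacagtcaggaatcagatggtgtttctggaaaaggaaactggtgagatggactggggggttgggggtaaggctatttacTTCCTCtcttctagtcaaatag
Fcgr2b, minus strand, chr1:170976072-170976321: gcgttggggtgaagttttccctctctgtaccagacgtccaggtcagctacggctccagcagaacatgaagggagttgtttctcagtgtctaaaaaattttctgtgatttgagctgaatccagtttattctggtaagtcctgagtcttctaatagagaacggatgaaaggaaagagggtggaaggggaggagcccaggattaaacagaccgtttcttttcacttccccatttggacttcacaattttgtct
None of the 6 genes held TTCNNNNGAA in this window, which 6.95% of the 32851 mouse start regions of the same length held. Fcgr1 held the only TTCNNNGAA, TTCCCAGAA at position -109 (8.3% of all start regions). GAGGAA stood in the start regions of Fcgr1 (at -55), Fcgr4 (at -22) and Fcgr3, each on the opposite strand and so read as TTCCTC, and was in none of Fcer1g, Fcgr2b and Fcgrt (28.28% of all start regions). The kappa B consensus matched in Fcgr3 and Fcgr4 and in no other member (4.51% of all start regions). These matches are letters only, and binding was not measured in these files. Sequence outside these windows was not searched, and the study's text places most STAT6-bound sites in intergenic and intronic regions.

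Fcgr3 encodes the low-affinity activating receptor (chr1:171051169-171059403, minus strand) and was the most abundant of the 3 activating receptors, giving 78.1 to 93.4% of their summed FPKM in every library. Its level was 796, 716 and 725 FPKM in control cells, 685, 670 and 658 FPKM with IL-4, 570, 606 and 604 FPKM with LPS and 396, 369 and 367 FPKM with both. The IL-4+LPS libraries lay below all others. Neither agent alone moved it by much: IL-4 gave a log2 difference of -0.15 (95% CI -0.29 to -0.01) that missed the threshold (limma adjusted p = 0.0835), and LPS lowered it 1.26-fold (log2 difference -0.33, SE 0.06, limma adjusted p = 0.000678). With the replicate number as a block the difference with IL-4 passed (limma adjusted p = 0.0353).

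The fall of Fcgr3 with LPS alone was smaller than the shift of all rows and became a rise of 0.20 under median scaling. In IL-4-pretreated cells LPS lowered Fcgr3 1.78-fold (log2 difference -0.83, SE 0.06, limma adjusted p = 9.84e-07), a fall larger than the shift of -0.41. The response to LPS itself differed with IL-4 (interaction -0.50, SE 0.09, limma adjusted p = 0.00556), a call kept in all 12 fits without 1 library. In LPS-exposed cells IL-4 pretreatment lowered Fcgr3 1.57-fold (log2 difference -0.65, limma adjusted p = 2.58e-05). From high to low the order was control, then IL-4, then LPS, with IL-4+LPS lowest, the first pair not separated by the test, and under median scaling LPS stood above IL-4.

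Fcgr4 encodes an activating receptor of intermediate affinity (chr1:171018926-171029761, plus strand). It was the least abundant of the activating receptors in control, at 49.97, 52.6 and 36.6 FPKM, and measured 34.8, 34.7 and 31.97 FPKM in IL-4. The values were 72.1, 59.8 and 62.9 FPKM in LPS and 31.7, 32.4 and 24.0 FPKM in IL-4+LPS. The 3 LPS libraries stood above all others, and the IL-4 and IL-4+LPS libraries overlapped. IL-4 pretreatment lowered Fcgr4 2.21-fold in LPS-exposed cells (log2 difference -1.13, SE 0.15, limma adjusted p = 0.000235), which held in all 12 fits without 1 library.

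LPS alone raised Fcgr4 1.40-fold (log2 difference 0.49, SE 0.15, limma adjusted p = 0.0115), while after IL-4 the difference was -0.21 (95% CI -0.54 to 0.12). The interaction of -0.70 missed the threshold (limma adjusted p = 0.0642) and passed it with the replicate number as a block (limma adjusted p = 0.0127). IL-4 alone gave a fall of 1.37-fold (log2 difference -0.43, SE 0.15, limma adjusted p = 0.0429), a call lost in 7 of the 12 fits without 1 library, where it ran from -0.59 to -0.33. The order from high to low was LPS, control, IL-4 and IL-4+LPS, as for Fcgr1, and again the last pair did not differ beyond the spread.

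Fcer1g, the ITAM chain shared by the activating receptors and by several lectins (chr1:171229572-171234349, minus strand), was among the most abundant messages of these cells, at rank 29 of 11191 in control. Its level was 1514, 1500 and 1485 FPKM in control cells, 1072, 1021 and 1022 FPKM with IL-4, 1641, 1747 and 1700 FPKM with LPS and 1179, 1388 and 1211 FPKM with both. No 2 of the 4 groups overlapped. IL-4 lowered it 1.44-fold in resting cells (log2 difference -0.53, SE 0.07, limma adjusted p = 0.000223) and 1.35-fold in LPS-exposed cells (log2 difference -0.43, SE 0.07, limma adjusted p = 0.000921), both kept without any 1 library.

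With LPS, Fcer1g was 1.13-fold higher than in control (log2 difference 0.18, limma adjusted p = 0.0389), a call lost in 7 of the 12 fits without 1 library. After IL-4 it was 1.21-fold higher with LPS (log2 difference 0.27, limma adjusted p = 0.00459), and the LPS response was not shown to differ (interaction 0.10, limma adjusted p = 0.612). The messages of the chain and its receptors did not keep 1 ratio: Fcer1g over the summed activating receptors was 1.75 ± 0.096 in control cells, 1.44 ± 0.019 with IL-4, 2.27 ± 0.040 with LPS and 2.99 ± 0.35 with both (SD, n = 3). The chain was thus highest relative to its receptors in the IL-4+LPS group, where Fcgr3 was lowest. Whether LPS moves Fcer1g at all depends on the scaling: the difference after IL-4 was 0.10 and that in untreated cells 0.03 under quantile normalization, neither past the threshold.

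Fcgr2b, the inhibitory receptor (chr1:170960559-170976071, minus strand), rose with each agent. Its level was 118, 110 and 103 FPKM in control and 235, 207 and 198 FPKM in IL-4. It reached 296, 481 and 507 FPKM in LPS and 228, 322 and 299 FPKM in IL-4+LPS. All treated libraries lay above the control libraries, and LPS replicate 1 lay well below the other two of its group. IL-4 raised Fcgr2b 1.94-fold, from 110.2 ± 7.41 to 213.5 ± 18.9 FPKM (log2 difference 0.95, SE 0.19, limma adjusted p = 0.00347), and LPS raised it 3.88-fold, to 428 ± 115 FPKM (log2 difference 1.91, SE 0.19, limma adjusted p = 6.87e-06).

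The 2 rises did not add up. After IL-4 the further difference with LPS was 0.39 (95% CI -0.04 to 0.82, limma adjusted p = 0.0886), and the response to LPS was smaller than without IL-4 (interaction -1.52, SE 0.27, limma adjusted p = 0.00641), a call kept in all 12 fits without 1 library. With replicates 2 and 3 only, a choice made after seeing the data, LPS raised Fcgr2b after IL-4 as well (log2 difference 0.61, limma adjusted p = 5.77e-05), and under median scaling it did so too (0.91, limma adjusted p = 0.004). IL-4+LPS stood 1.51-fold below LPS (log2 difference -0.57, limma adjusted p = 0.0464), lower in 3 of 3 replicate numbers, but the groups overlapped and the call was lost in 10 of the 12 fits without 1 library. The order from high to low was LPS, IL-4+LPS, IL-4 and control, with the middle pair not separated by the test.

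Fcgr2b and Fcgr3 are near-identical in part of their coding sequence, so some fragments cannot be assigned to 1 of them. Of the 50-base words of the longest Fcgr3 transcript, 12.79% also occurred in Fcgr2b, against 0.0% in any other gene for Fcgr1, Fcgr4, Fcer1g and Fcgrt. Of those of the longest Fcgr2b transcript, 11.36% occurred in another gene, 166 of 3495 in Fcgr3 and most of the rest in scattered unrelated genes. With words of 100 bases, the read length in the methods, the overlap was smaller. Of these words of Fcgr3, 3.53% occurred in Fcgr2b, and of those of Fcgr2b, 44 of 3445 occurred in Fcgr3. GENCODE places Fcgr2b at chr1:170958617-170976547 and Fcgr3 at chr1:171051174-171064935, both longer than the expression rows. These shares therefore need not hold for the quantified parts. The longest identical coding run, coding bases 278 to 406 of Fcgr2b-201 and 263 to 391 of Fcgr3-201 in GENCODE vM21, held 129 bases and is printed once for both.
Fcgr2b and Fcgr3: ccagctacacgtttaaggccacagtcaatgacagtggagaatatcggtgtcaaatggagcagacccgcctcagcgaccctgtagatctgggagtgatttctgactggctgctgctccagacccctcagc
How the fragments from this stretch were shared between the genes was not tested. Another gene, Gm38204, overlaps exons of Fcgr2b in GENCODE, and the kit did not mark strand. Reads of the 2 genes from a shared stretch cannot be told apart. Whether the overlap lies within the quantified row of Fcgr2b was not tested. For the other 5 members, no exon of another gene overlaps one of their exons. Mir6546, Gm26110 and Gm45669 overlap the loci of Fcgr3, Fcgr4 and Fcgrt outside those exons.

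Fcgrt, the heavy chain of FcRn (chr7:45092993-45103822, minus strand), fell with both agents. It measured 81.0, 98.8 and 95.8 FPKM in control cells, 35.2, 39.3 and 35.7 FPKM with IL-4, 44.2, 51.7 and 47.3 FPKM with LPS and 23.2, 23.1 and 26.0 FPKM with both. No 2 groups overlapped, and the order was control, then LPS, then IL-4, with IL-4+LPS lowest. IL-4 lowered it 2.50-fold (log2 difference -1.30, SE 0.09, limma adjusted p = 3.09e-06), and LPS lowered it 1.92-fold (log2 difference -0.93, SE 0.09, limma adjusted p = 6.1e-06).

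In the IL-4+LPS group Fcgrt was 1.98-fold below LPS (log2 difference -0.95, limma adjusted p = 2.87e-05) and 1.52-fold below IL-4 (log2 difference -0.59, limma adjusted p = 0.000206). The last of these was close to the shift of all rows and became -0.09 under median scaling. The LPS response was not shown to differ with IL-4 (interaction 0.34, limma adjusted p = 0.138), but this interaction passed with the replicate number as a block (limma adjusted p = 0.0385). B2m, the partner chain of FcRn, was between 2903 and 4787 FPKM in all libraries and passed the threshold in none of the 5 comparisons, though under median scaling it did with LPS in both states. With the replicate number as a block it passed with IL-4 (limma adjusted p = 0.0407), with LPS after IL-4 (limma adjusted p = 0.00871) and in IL-4+LPS against LPS, the comparison whose numbers pair (log2 difference 0.28, limma adjusted p = 0.00706). Its log2 difference was 0.18 (SE 0.17) with IL-4 and 0.13 (SE 0.17) with LPS.

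**Figure D2:**
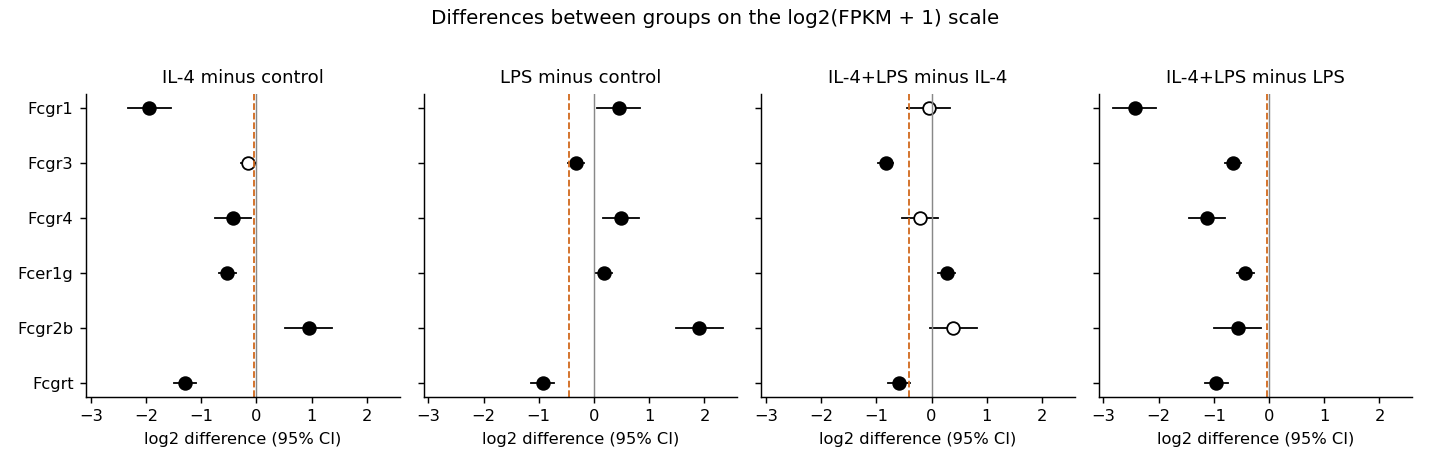
Log2 differences on the log2(FPKM + 1) scale for the 6 genes in 4 comparisons, with bars for the 95% CI, filled points for adjusted p under 0.05, the solid grey line at 0 and the dashed orange line at the median of all tested rows. The dashed line sits at -0.44 and -0.41 in the comparisons that add LPS, and all 6 genes lie to the left of 0 in IL-4+LPS minus LPS.

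Counted over the set, IL-4 alone raised 1 of the 6 genes (Fcgr2b) and lowered 4 (Fcgr1, Fcgr4, Fcer1g and Fcgrt), where 16.0% of all tested rows were called higher and 21.0% lower. LPS alone raised 4 and lowered 2 (Fcgr3 and Fcgrt), against 16.9% of rows higher and 57.7% lower. In all tested rows median scaling changed that split to 3558 higher and 3610 lower, and Fcgr3 then changed sides. In IL-4-pretreated cells LPS raised only Fcer1g (15.0% of rows higher) and lowered Fcgr3 and Fcgrt (57.9% lower). In LPS-exposed cells IL-4 lowered 6 of the 6 genes, against 15.8% of rows called lower and 15.0% higher, with a median difference of -0.80 beside -0.03 over all rows. The interaction was negative and past the threshold for Fcgr3 and Fcgr2b and for no other member, where 4.63% of rows were called lower and 4.58% higher. Against control, the IL-4+LPS group was higher for Fcgr2b (17.9% of rows higher) and lower for the other 5 genes (56.4% lower). Against IL-4, the LPS group was higher for 5 genes (18.5% of rows higher) and lower for Fcgr3 (55.2% lower). Those 2 comparisons were used only to order the groups, and comparisons that share a group also share its samples.

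The balance of activating to inhibitory receptors was then compared within each library. The summed FPKM of Fcgr1, Fcgr3 and Fcgr4 over that of Fcgr2b was 7.82, 7.61 and 7.91 in control cells, 3.15, 3.47 and 3.55 with IL-4, 2.47, 1.57 and 1.49 with LPS and 1.97, 1.29 and 1.35 with both. Control libraries had the highest ratios and IL-4 libraries the next, while the LPS and IL-4+LPS libraries overlapped. As means the ratio was 7.78 ± 0.15 in control cells, 3.39 ± 0.21 with IL-4, 1.84 ± 0.54 with LPS and 1.54 ± 0.37 with both (SD, n = 3). Replicate 1 gave the highest ratio in both LPS-exposed groups, where its Fcgr2b level was the lowest.

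Numerator and denominator contributed differently. The activating sum was not rescaled for the shift of all rows with LPS, -0.44 in untreated cells and -0.41 after IL-4. It was 857 ± 56.3 FPKM in control cells, 721 ± 17.5 FPKM with IL-4, 747 ± 14.7 FPKM with LPS and 423 ± 22.8 FPKM with both. The sum was thus lowest where both agents were given. Mean Fcgr2b too was below the LPS level when both were given, so that the ratios of these groups lay close together. Because Fcgr3 supplied most of the sum, the ratio mainly reports Fcgr3 against Fcgr2b. Within the activating receptors the share of Fcgr1 was 7.62 ± 0.88% in control and 11.9 ± 0.18% in LPS, against 2.26 ± 0.33% in IL-4 and 3.74 ± 0.73% in IL-4+LPS.

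**Figure D3:**
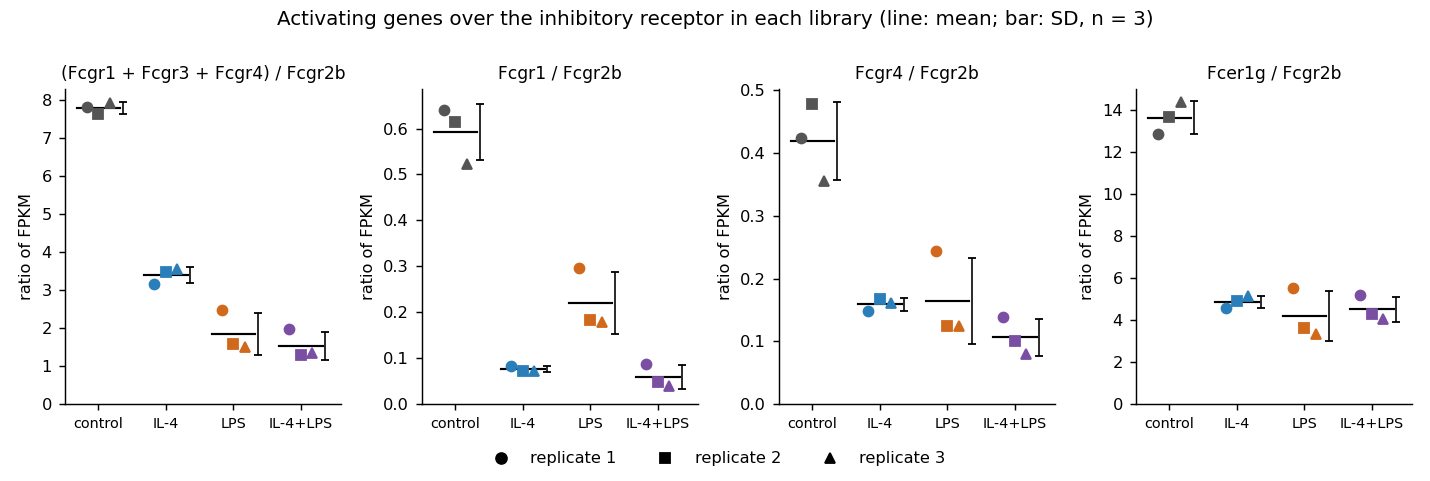
Ratios of FPKM within each library for the summed activating receptors, Fcgr1, Fcgr4 and Fcer1g over Fcgr2b, with the 4 groups on the x axis, a linear axis from 0, symbols for replicates, lines for means and bars for the SD (n = 3). The summed ratio falls from 7.78 in control to 3.39 in IL-4 and 1.54 in IL-4+LPS, and Fcgr1 over Fcgr2b is lower in both IL-4 groups than in control and LPS.

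Each activating gene was tested against Fcgr2b as the difference of their log2 values in the same library, which leaves out any scaling between libraries on the FPKM itself. With IL-4 alone Fcgr1 changed by -2.89 relative to Fcgr2b, Fcgr4 by -1.37, Fcer1g by -1.48 and Fcgr3 by -1.10 (limma adjusted p = 1.89e-06, 0.000622, 8.95e-05 and 0.00082). With LPS alone the values were -1.46 for Fcgr1, -1.42 for Fcgr4, -1.73 for Fcer1g and -2.24 for Fcgr3, all 4 past the threshold. These counts of 4 of 4 stand beside a background in which 84.1% of all rows fell relative to Fcgr2b with IL-4 and 93.1% with LPS, so they say little about the activating genes themselves.

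In LPS-exposed cells the comparison was more selective. IL-4 pretreatment lowered Fcgr1 relative to Fcgr2b (log2 difference -1.87, SE 0.27, limma adjusted p = 0.000164), where 1.71% of all rows were called lower. Fcgr4 gave -0.56 (95% CI -1.13 to 0.01), Fcgr3 -0.08 (95% CI -0.56 to 0.39) and Fcer1g 0.14 (95% CI -0.32 to 0.60), none past the threshold. When LPS was added after IL-4, Fcgr3 alone fell relative to Fcgr2b (-1.22, limma adjusted p = 0.000361, 64.9% of rows lower). The interaction was positive for 4 of 4 activating genes, between 0.82 and 1.61, as for 93.9% of all rows. That of Fcgr4 (limma adjusted p = 0.0498) was lost in 9 of the 12 fits without 1 library.

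Averaged over cells without and with LPS, an exact permutation test with IL-4 labels exchanged within each LPS state (400 arrangements, 2-sided, smallest possible p = 0.005) gave 0.005 for Fcgr1 relative to Fcgr2b, 0.015 for Fcgr4, 0.03 for Fcgr3 and 0.075 for Fcer1g. The corresponding log2 differences were -2.38, -0.97, -0.59 and -0.67. These averages join unlike effects, since the interaction was positive for 4 of 4 genes. Fcgr3 gave -1.10 without LPS and -0.08 with it, and Fcer1g -1.48 and 0.14. The share of all rows was not taken for the average. Fcgr1 thus had the largest fall against the inhibitory receptor of the 4 genes in the IL-4 comparisons, and Fcgr3 the largest in both LPS comparisons.

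The signaling genes downstream of the receptors were read from lists by role. Of 30 genes of ITAM signaling, IL-4 raised 5 and lowered 12 (median log2 difference -0.13, beside -0.05 over all rows). Of all rows, it raised 16.0% and lowered 21.0%. Syk, the kinase recruited to the Fcer1g chain, fell with IL-4 from 104.6 to 79.7 FPKM (log2 difference -0.39, limma adjusted p = 0.00574) and rose with LPS to 282 FPKM (log2 difference 1.42, limma adjusted p = 2.09e-07). The Src family kinase Fgr (-1.28) fell the most with IL-4, and the kinase Fyn (1.35) and the adaptor Lat (1.16) rose the most. In LPS-exposed cells IL-4 pretreatment lowered 14 and raised 7 of the 30, beside 15.8% of all rows lowered and 15.0% raised. Fgr (-1.63) and the exchange factor Vav1 (-1.42) stood at one end and the adaptors Blnk (1.54) and Lat (1.33) at the other. Syk did not pass the threshold (-0.20, SE 0.09, limma adjusted p = 0.12) and did with the replicate block (SE 0.06, limma adjusted p = 0.024).

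LPS raised 12 and lowered 15 of the same 30 genes in untreated cells, and under median scaling raised 14 and lowered 6. Of all rows, 16.9% rose and 57.7% fell in that comparison without scaling. Under median scaling 3558 of the 11191 rows rose and 3610 fell. The adaptor Lcp2 (3.19) rose the most, and the kinase Tec (-1.68) and the adaptor Lat2 (-1.63) fell the most. After IL-4 LPS raised 10 and lowered 15, where 15.0% of all rows rose and 57.9% fell. Under median scaling it raised 15 and lowered 6, beside 3342 of the 11191 rows raised and 3283 lowered. Without scaling Lcp2 (3.03) was again highest and Tec (-2.59) and Vav2 (-1.94) lowest.

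Of 11 genes that act with inhibitory receptors, LPS raised 1 and lowered 8 in untreated cells (median -0.64, beside -0.44 over all rows, of which 57.7% fell). Under median scaling it raised 3 and lowered 5, beside 3558 of the 11191 rows raised and 3610 lowered. The list median was then -0.13, beside -0.0072 over all rows. Inpp5d, which encodes the SHIP-1 phosphatase that binds the ITIM of Fcgr2b, fell from 79.3 ± 2.15 FPKM in control to 8.73 ± 2.27 FPKM in LPS (log2 difference -3.07, limma adjusted p = 8.88e-07) and from 43.7 ± 0.91 FPKM in IL-4 to 4.96 ± 2.43 FPKM in IL-4+LPS (log2 difference -2.98, limma adjusted p = 1.33e-06). Its control and LPS values did not overlap, so the message of the receptor and that of its phosphatase moved in opposite directions with LPS. The kinase Csk (-1.27) fell next most, and the tyrosine phosphatase Ptpn11 (0.32) was the gene that rose. Ptpn6, the SHP-1 phosphatase, gave -0.01 (SE 0.18, limma adjusted p = 0.975).

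With IL-4 alone 3 of the 11 genes rose and 5 fell, beside 16.0% of all rows raised and 21.0% lowered. The ubiquitin ligase Cblb (1.94) and the adaptor Dok2 (1.09) rose the most. Dok3 (-1.30) and Ptpn6 (-0.85, limma adjusted p = 0.0043) fell the most, with Inpp5d at the same value of -0.85 (limma adjusted p = 0.0167). In LPS-exposed cells IL-4 lowered 3, led by Dok3 (-1.59) and Inpp5d (-0.76, limma adjusted p = 0.0315), and raised Dok1 (0.50) and Dok2 (0.56). Of all rows, 15.8% were lowered and 15.0% raised in that comparison. After IL-4 LPS raised 3, led by Ptpn6 (0.43) and Ptpn11 (0.32). It lowered 7, led by Inpp5d and Cblb (-2.41), beside 57.9% of all rows lowered. Under median scaling it raised 4 and lowered 6, beside 3342 of the 11191 rows raised and 3283 lowered.

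**Figure D4:**
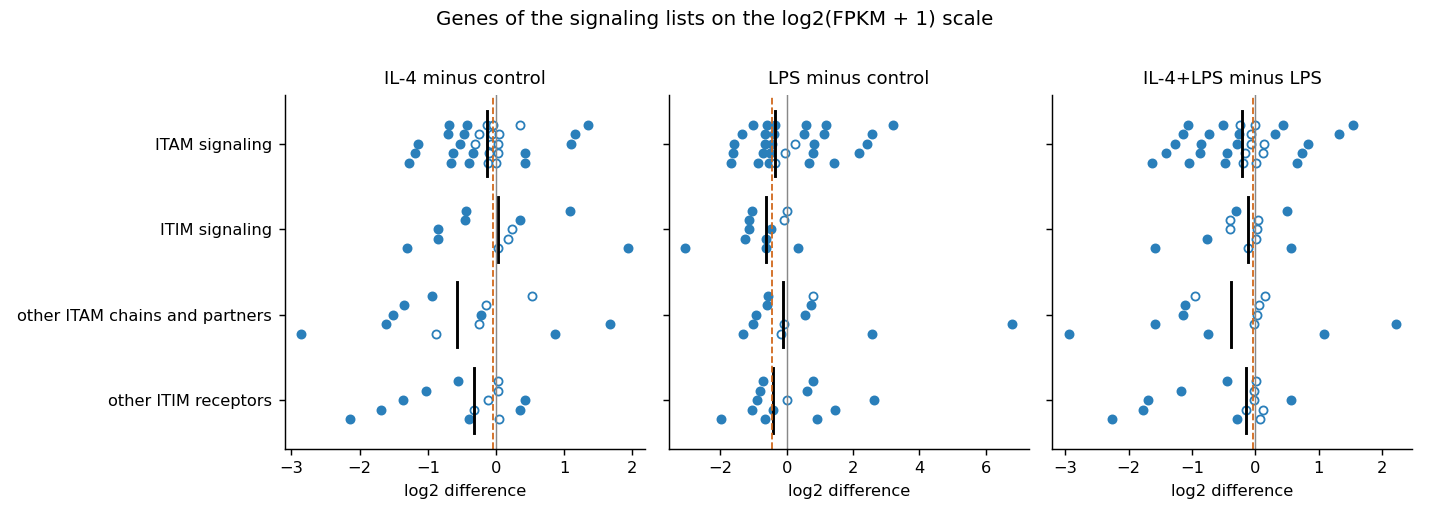
Log2 differences of the tested genes of 4 signaling lists in 3 comparisons, 1 point per gene (filled for adjusted p under 0.05, height within a list arbitrary), with black lines at list medians, the grey line at 0 and the dashed orange line at the median of all rows. Inpp5d is the lowest ITIM signaling point with LPS at -3.07, and Clec4n is the lowest point with IL-4 at -2.86. The x axes differ in range.

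Fcer1g also serves some lectins and paired receptors. The next list holds other ITAM chains, such as Tyrobp, and receptors of the ITAM type, and is not limited to partners of Fcer1g. Of 12 tested ITAM chains and partners (14 listed), IL-4 raised 2 and lowered 6 in resting cells and raised 2 and lowered 5 in LPS-exposed cells (medians -0.57 and -0.38). Of all rows, 16.0% were raised and 21.0% lowered in resting cells, and 15.0% and 15.8% in LPS-exposed cells. Clec4n, which encodes the lectin Dectin-2 and pairs with Fcer1g, fell from 93.6 ± 5.15 to 12.6 ± 5.01 FPKM with IL-4 (log2 difference -2.86, limma adjusted p = 1.42e-05) and stood at 11.03 ± 3.85 FPKM in IL-4+LPS against 88.8 ± 8.45 FPKM in LPS (log2 difference -2.94, limma adjusted p = 1.2e-05). Clec4e (-1.61) fell next most with IL-4 and Clec4d (-1.59) next most in LPS-exposed cells, while Clec7a (1.67 and 2.22) and Cd300ld (0.86 and 1.08) rose in both. LPS raised 4 and lowered 5 of the 12 in untreated cells, with Clec4e (6.80) and Clec5a (2.57) highest, and Clec7a (-1.32) and Cd300ld (-1.02) lowest. Under median scaling these counts were 5 and 2, beside 3558 of the 11191 rows raised and 3610 lowered. Without it 57.7% of all rows fell. After IL-4 LPS raised 4, led by Clec4e (7.67) and Clec5a (2.10). It lowered 3, led by Cd300ld (-0.80) and Trem2 (-0.53), beside 57.9% of all rows lowered. Under median scaling LPS raised 5 and lowered 1, beside 3342 of the 11191 rows raised and 3283 lowered.

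Fcgr2b was compared with a list of 13 other receptors, all of the inhibitory type except Gp49a, a close relative of the listed Lilrb4. IL-4 raised 2 (Cd300lf, 0.42, and Clec4a2, 0.35) and lowered 6, led by Clec12a (-2.14) and Siglece (-1.68). In LPS-exposed cells it raised Cd300lf (0.56) and lowered 6, led by Siglece (-2.27) and Clec12a (-1.77). Of all rows, IL-4 raised 16.0% and lowered 21.0% in resting cells, and 15.0% and 15.8% in LPS-exposed cells. The value for Fcgr2b was 0.95 with IL-4 and -0.57 in LPS-exposed cells, and the differences between Fcgr2b and these receptors were not tested. LPS raised 5, led by Pilra (2.64) and Siglece (1.47), and lowered 7, led by Cd300a (-1.99) and Lair1 (-1.05), and under median scaling raised 6 and lowered 6. After IL-4 it raised 5, led by Pilra (2.31) and Siglece (0.88), and lowered 7, led by Cd300a (-1.68) and Clec4a2 (-1.05). The latter counts became 6 raised and 3 lowered under median scaling, and 4 of each under quantile normalization. Of all rows, 57.7% fell with LPS in untreated cells and 57.9% after IL-4. Under median scaling 3558 of the 11191 rows rose and 3610 fell in untreated cells, and 3342 rose and 3283 fell after IL-4. Quantile normalization gave 2461 raised and 4173 lowered after IL-4.

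Of 11 other Fc receptors listed, 4 were tested. Trim21, a cytosolic antibody receptor, fell with IL-4 (-0.60) and rose with LPS from 12.2 to 59.7 FPKM (2.20), and Fcrl1 fell with IL-4 (-2.54) and with LPS (-1.23). With IL-4 pretreatment Fcrl1 was also lower in LPS-exposed cells (-1.68). Fcrlb passed the filter only through the LPS group (2.18 ± 1.41 FPKM, SD), and no library of another group exceeded 0.741 FPKM. Its differences, 1.47 with LPS and -1.002 in IL-4+LPS against LPS, rest on that group and are not read as results. After IL-4 LPS raised Trim21 (2.60) and no other of the 4 passed the threshold.

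Fcgr2b, Fcgr4, Fcgr3 and Fcer1g lie within 1 stretch of chromosome 1, where 15 other rows within 250 kb of a member had a mean of at least 5 FPKM. IL-4 lowered 7 of these and raised 1, beside 21.0% of all rows lowered and 16.0% raised. The largest fall was that of Pcp4l1 (-2.92, limma adjusted p = 3.08e-06) and the largest rise with LPS that of Adamts4 (4.41). Near Fcgr1 on chromosome 3, IL-4 raised 4 of 6 such rows and lowered none. The raised rows were Vps45 (0.36), the histone gene Hist2h2ac (1.21) and both rows of the histone gene Hist2h2aa1 (0.90 and 0.99). The count is thus not one of separate genes. Near Fcgrt on chromosome 7, IL-4 lowered 4 of 24 and LPS lowered 16 of 24, beside 21.0% and 57.7% of all rows, and Cd37 (-0.92 with IL-4) was among them.

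Genes were ranked by Pearson r of log2(FPKM + 1) with each member over the 12 libraries, among 7225 rows with a mean of at least 5 FPKM. The values are descriptions of a pattern over 4 groups and carry no test. Sash1 (0.99), Glipr1 (0.98), Lpcat2 (0.98), Clec4n (0.97) and Smox (0.97) were most like Fcgr1. Most like Fcgr2b were Dcaf13 (0.98), Tcp1 (0.97), Etf1 (0.97), Gyk (0.97) and Stx6 (0.97), and most like Fcgrt were Cyfip2 (0.99), Gmip (0.99), Aldh2 (0.99), Cdk14 (0.98) and Orai1 (0.98). The highest for Fcgr3 were Suv420h1 (0.98), Runx1 (0.98), Nfatc3 (0.98), Rmnd5a (0.98) and Calhm2 (0.98), and for Fcer1g Rac3 (0.99), Tmem176a (0.98), Cd302 (0.98), Slc7a7 (0.98) and Tifa (0.97). Fcgr4 had Bcl6 (0.94), Clec4a1 (0.92), Rala (0.92), Srsf5 (0.92) and, within the set, Fcgr1 (0.92).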

How the data were processed

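RNA-seq of 12 mouse BMDM libraries (3 of each group) was analysed. The FPKM values deposited by the authors, 1 table per library, were used. Per the submitters' processing notes the builds and tools were mm10, TopHat2 2.0.7 and Cufflinks 2.0.2, and per the methods default parameters and paired reads were used. The gene annotation was not given in the sources used here. FPKM scales each library to its own total, so a change in a few abundant messages shifts all others. FPKM totals were 457583 to 495025. Low values were compared below 0.2 FPKM for relative depth.

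Rows with at least 1 FPKM in at least 1 library were kept (11191 of 23847), transformed to log2(FPKM + 1), and fitted with limma 3.58.1 in R 4.3.3 with a mean per group over all libraries, an intensity trend and Benjamini-Hochberg adjustment within each comparison. Differences on this scale understate the change of low genes. The same fit was made on each row minus Fcgr2b. Intervals are 95% intervals of the fit. Two-sided exact permutation tests were run for the ratios to Fcgr2b averaged over LPS states. For a single comparison of 3 against 3 libraries the smallest exact p is 0.1. Figures were drawn with matplotlib in Python.

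Members and lists were chosen with earlier results of these data known. Named genes were the 6 members, in each list the 2 with the largest rise and the 2 with the largest fall past the threshold per comparison, B2m, Syk, Inpp5d and Ptpn6, neighbours within 250 kb past the threshold for IL-4 or LPS with a mean of at least 5 FPKM, and the 5 rows most like each member. One gene that this rule names is not reported here. Ly6g, listed as a neutrophil marker, was not matched. Sequences and start sites were from RefSeq and transcripts from GENCODE vM21.

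Per the study's text the replicates were 3 animals from 2 experiments, but which number belongs to which was not given, so p-values measure the spread between these libraries. Deviations of libraries with the same number correlated at 0.12 on average (0.0024 to 0.39 over 18 pairs of libraries). Only for LPS with IL-4+LPS were all 3 pairs above 0.1, so the numbers were taken to pair the libraries for that comparison only. Replicate 1 of every group stood apart from replicates 2 and 3 on the first component of the deviations, which held 28.15% of the variance within groups. The numbers thus marked some shared structure in the other comparisons too. The main fit held no block, and the fit with one is given beside it. The alternatives were a pseudocount of 0.1, no filter, at least 1 FPKM in at least 3 libraries, quantile normalization, median scaling, no intensity trend, only the compared groups, the replicate block, a per-gene Tukey test, leaving out each library, and replicates 2 and 3 only, which was added after seeing the data.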

Additional observations from a re-analysis of the deposited data

Results flagged for a closer look

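The response to LPS differed between cells with and without IL-4 pretreatment, by the limma interaction test, for 2 members. The interaction of Fcgr3 was -0.50 (limma adjusted p = 0.00556) and that of Fcgr2b was -1.52 (limma adjusted p = 0.00641). Relative to Fcgr2b it was 1.02 for Fcgr1 (limma adjusted p = 0.0185), 1.02 for Fcgr3 (limma adjusted p = 0.00684), 0.82 for Fcgr4 (limma adjusted p = 0.0498) and 1.61 for Fcer1g (limma adjusted p = 0.000649). The last 4 share the Fcgr2b values, and 93.9% of all rows were called in the same direction.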

How the results depend on the processing

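FPKM values without counts and 3 libraries a group limit what small differences can show. Quantile normalization reduced Fcgr1 with LPS to 0.35, Fcer1g with LPS to 0.029 and Fcer1g with LPS after IL-4 to 0.10, none past the threshold, turned Fcgr1 with LPS after IL-4 to 0.19, and brought the Fcgrt interaction past it (0.55). Median scaling, by construction, raised values with LPS: Fcgr3 with LPS turned to 0.20, and after IL-4 Fcgr1 turned to 0.43, Fcgr4 to 0.29, Fcgr2b passed the threshold (0.91) and Fcgrt did not (-0.089). Against control, IL-4+LPS gave 0.28 for Fcer1g and -0.12 for Fcgr4, and LPS against IL-4 gave 0.33 for Fcgr3. Under the same scaling Fcgr4 with IL-4 (-0.40), Fcgr2b in IL-4+LPS against LPS (-0.56) and the Fcgr4 interaction relative to Fcgr2b (0.81) lost their calls, and Fcgr4 relative to Fcgr2b with LPS after IL-4 gained one (-0.62).

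Without the filter, calls were lost for Fcgr1 (0.45) and Fcer1g (0.18) with LPS, Fcgr4 with IL-4 (-0.43) and Fcgr2b in IL-4+LPS against LPS (-0.57), and Fcgr4 relative to Fcgr2b in that comparison passed (-0.56). With at least 1 FPKM in 3 libraries Fcgr4 relative to Fcgr2b with LPS after IL-4 passed (-0.60), as it did with only the compared groups, where Fcer1g with LPS (0.18), Fcgr4 with IL-4 (-0.43) and Fcgr2b in IL-4+LPS against LPS (-0.57) were lost. The per-gene Tukey test, unadjusted over genes, lost these and Fcgr1 (0.45) and Fcgr4 (0.49) with LPS. The Fcgr4 interaction relative to Fcgr2b was lost with a pseudocount of 0.1 (0.81) and without the trend (0.82). The exact permutation test of Fcer1g relative to Fcgr2b gave -0.67 and missed 0.05. The cause of these changes was not tested.

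With the replicate number as a block, Fcgr3 with IL-4 (-0.15, limma adjusted p = 0.0353), Fcgr4 relative to Fcgr2b with LPS after IL-4 (-0.60), and the interactions of Fcgr4 (-0.70, limma adjusted p = 0.0127) and Fcgrt (0.34, limma adjusted p = 0.0385) passed the threshold. The block changed no other call of a member, and none in IL-4+LPS against LPS, the comparison whose numbers pair. In the lists the block moved counts by at most 3 genes. In the interaction 8 rather than 5 ITAM genes were lower and 3 rather than 0 other ITAM chains and partners higher. Over all 11191 rows the interaction calls went from 512 higher and 518 lower to 1145 and 1095 with the block. In IL-4+LPS against LPS the block called 5 more list genes, Fcrls (0.96), B2m (0.28), Syk (-0.20), Pik3cd (-0.24) and Rasa1 (-0.40). All-row calls there went from 1682 higher and 1771 lower to 2287 and 2667. The block thus added calls over all rows, not only in the lists. With replicates 2 and 3 only, calls were gained for Fcgr3 with IL-4 (-0.12), Fcgr2b with LPS after IL-4 (0.61), the interactions of Fcgr1 (-0.65) and Fcgrt (0.37), and, relative to Fcgr2b, Fcgr1 (-0.70), Fcgr4 (-0.86) and Fcer1g (-0.27) with LPS after IL-4 and Fcgr4 (-0.44) and Fcer1g (0.26) in IL-4+LPS against LPS, while Fcgr4 with IL-4 (-0.39) was lost.

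Leaving out each library in turn gave 0.31 to 0.55 for Fcgr1 with LPS, 0.16 to 0.20 for Fcer1g with LPS, -0.59 to -0.33 for Fcgr4 with IL-4, -0.22 to 0.12 for Fcgr1 and 0.29 to 0.54 for Fcgr2b with LPS after IL-4, and -0.82 to -0.42 for Fcgr2b in IL-4+LPS against LPS. Relative to Fcgr2b, LPS after IL-4 gave -0.76 to -0.23 for Fcgr1 and -0.81 to -0.42 for Fcgr4, IL-4+LPS against LPS gave -0.27 to 0.14 for Fcgr3 and -0.0027 to 0.36 for Fcer1g, and the interactions were 0.70 to 1.26 for Fcgr1 and 0.61 to 1.14 for Fcgr4. For LPS against IL-4, Fcgr3 ran from -0.19 to -0.15.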
